A study of Mus musculus with 6 samples.

Results

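The endothelial cells described here were taken from a section of leg bone of wild-type C57BL/6 mice at postnatal day 8 (P8), on which transcripts of 477 genes were imaged in place with the Xenium assay and assigned to segmented cells. A cell was counted as a member when it held 4 or more raw counts of Kdr, Tie1, Clec14a and Gpihbp1 together and fewer than 3 of C1qa, C1qb and C1qc together. The rule found 2147 of 52594 cells of the section, a share of 4.08% (exact binomial interval 3.91% to 4.25%), out of 521938 cells in all 6 sections of the series. A further 288 cells had 4 or more counts of the vessel genes but were left out for their C1q counts. The members were thus chosen by the values of these 7 genes, so their levels are given as a description only.

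The series mapped C1q-expressing macrophages and the red cell precursors around them in blood-forming tissues of mice, with 1 formalin-fixed, paraffin-embedded section of 5 µm per tissue. The tissues were liver at embryonic day 14.5 (E14.5), liver at embryonic day 13.5, P8 bone marrow, marrow at 89 weeks, an untreated adult spleen and a spleen after phenylhydrazine (PHZ), a drug that destroys red cells, at 40 mg/kg injected into the abdomen 2 times a day for 2 days. All mice were labelled wild type, and young bone was taken to avoid the need for decalcification. With 1 section per condition there is no replicate, no test was made between cells, and every interval below is a 95% interval that covers counting error only.

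Endothelial cells line blood and lymph vessels. In marrow most vessels are sinusoids, wide, thin-walled and leaky channels through which new blood cells leave, fed by small arteries and arterioles, while skeletal muscle is supplied by tight, unfenestrated capillaries. Kdr encodes the main receptor for vascular endothelial growth factor, Tie1 a partner of the angiopoietin receptor, Clec14a a lectin-like surface protein of vessels, and Gpihbp1 the capillary protein that holds lipoprotein lipase.

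The 250 bases before the start of 4 genes are shown first, Kdr and Tie1 because they were the rule genes detected in most members, and Mrc1 and Cav1 because the marrow members are split by them below. The sequences are those of RefSeq on mouse build GRCm38.p6, read 5′ to 3′ in the direction of the gene, at chr5:75978456-75978705 (minus strand) for Kdr, chr4:118489850-118490099 (minus strand) for Tie1, chr2:14229164-14229413 (plus strand) for Mrc1 and chr6:17306085-17306334 (plus strand) for the first of 2 listed starts of Cav1. Capitals mark GGAAG, the core of the sites bound by ETS factors, a family that many vessel genes depend on, or its reverse complement CTTCC.
Kdr: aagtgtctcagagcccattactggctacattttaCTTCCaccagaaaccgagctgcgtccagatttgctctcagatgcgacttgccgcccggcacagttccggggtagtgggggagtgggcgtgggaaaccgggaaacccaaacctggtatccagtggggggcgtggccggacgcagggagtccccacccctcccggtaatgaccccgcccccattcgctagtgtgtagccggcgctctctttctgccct
Tie1: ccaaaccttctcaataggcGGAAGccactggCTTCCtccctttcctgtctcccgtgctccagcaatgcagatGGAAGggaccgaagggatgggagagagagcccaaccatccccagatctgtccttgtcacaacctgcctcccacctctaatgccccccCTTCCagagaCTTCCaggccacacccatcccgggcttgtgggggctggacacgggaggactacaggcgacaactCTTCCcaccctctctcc
Mrc1: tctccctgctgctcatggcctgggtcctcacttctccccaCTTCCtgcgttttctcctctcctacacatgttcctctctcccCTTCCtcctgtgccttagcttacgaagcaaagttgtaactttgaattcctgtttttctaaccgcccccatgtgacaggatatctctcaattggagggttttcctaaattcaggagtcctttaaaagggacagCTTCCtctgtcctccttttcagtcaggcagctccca
Cav1: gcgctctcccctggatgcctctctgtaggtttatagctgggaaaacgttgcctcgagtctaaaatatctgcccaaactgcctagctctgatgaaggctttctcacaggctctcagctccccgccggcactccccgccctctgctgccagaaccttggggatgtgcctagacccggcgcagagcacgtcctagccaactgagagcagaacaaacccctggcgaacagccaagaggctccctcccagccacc
The window held 1 match at Kdr, 6 at Tie1, 3 at Mrc1 and 0 at Cav1. These counts cover GGAAG and CTTCC only, and a window with 0 matches can still hold another form of the site. Among 32851 RefSeq promoters of the same length 64.1% held at least 1 match and 10.7% held 3 or more, so a match is a common feature of such windows and is given as a description. Clec14a, the third of the rule genes with a listed window, held 1 match.

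Each of the 4 rule genes was carried by many members. Kdr had 2.55 counts per member and was detected in 90.7% of them, Tie1 had 2.10 counts and was in 85.6%, Gpihbp1 had 1.40 and was in 66.4%, and Clec14a had 0.929 and was in 51.6%. All 4 were detected together in 479 members, 3 of them in 1111, 2 in 511 and 1 in 46. Few members held 1 of the genes only, but 501 (23.3%) reached 4 counts on Kdr alone, 346 (16.1%) on Tie1, 197 (9.18%) on Gpihbp1 and 88 (4.10%) on Clec14a. The count of rule transcripts had no gap at the threshold, with 1119 cells at 3 counts and 673 at 4. The 604 members with exactly 4 counts had a median of 144 transcripts of all genes and a median cell area of 68.0 square µm, and the 996 cells with 3 counts and fewer than 3 of C1q had 138 transcripts and 66.8 square µm. Members held 49.2% of the section's Kdr counts, 50% of Tie1, 44.6% of Clec14a and 53.9% of Gpihbp1, so about as many of these transcripts lay in cells outside the rule.

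The section held 6446659 transcripts in cells, with a median of 161 per member and 107 per other cell, and its highest negative control probe had 40 counts. Cells were outlined by expanding nuclei, and 40.3% of the members' transcripts lay over the nucleus against 49.4% in the other cells, so transcripts of neighbouring cells may be counted in an outline. The names of P8 cells recurred in other sections only 3 times in the E14.5 liver, 2 in the marrow at 89 weeks, and 1, 1 or 0 times in the rest.

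The label of the cells as marrow endothelium held in part. Of 13 other pan-endothelial genes the members had 5 or more counts together in 83.5% of cells, against 9.73% of the other cells. This list was chosen with earlier results of these data known. The count is also raw, and median depths were 161 transcripts in members and 107 in other cells. The surroundings were classed from the cells within 40 µm that were not members, by which marker list was present in at least 50% of them (erythroid and granulocyte genes for marrow, muscle genes, cartilage genes or the collagen I genes Col1a1 and Col1a2). Only 1281 members, 59.7%, lay in marrow surroundings, while 490 (22.8%) lay in collagen I surroundings, which on the map form bands along the bone and at its ends, 323 (15.0%) in skeletal muscle, 18 in cartilage and 35 in mixed surroundings. The members are thus vessel-gene cells of the whole P8 section and not of the marrow alone. They made up 3.60% of cells in marrow surroundings (3.41% to 3.80%), 5.79% in collagen I (5.30% to 6.31%), 15.1% in muscle (13.6% to 16.7%) and 0.399% in cartilage (0.237% to 0.630%). The other cells had median depths of 112, 113, 144 and 66 transcripts there, and the part of depth in these shares was not tested.

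**Figure D1:**
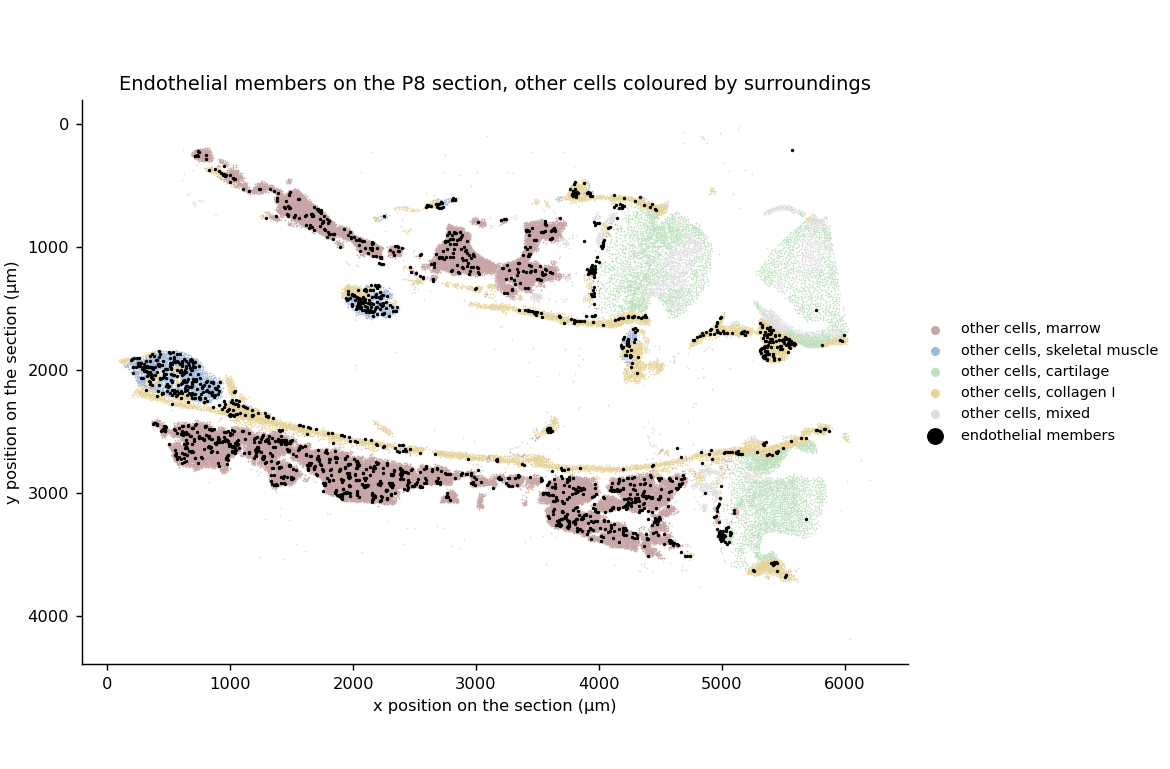
Position of every cell of the P8 section, x and y in µm, with the 2147 members in black and the other cells coloured by surroundings. Members lie throughout the marrow of both bone pieces, densely in the muscle pieces and along the collagen I bands, and only 18 lie in cartilage.

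Against all other cells of the section the members had the genes of vessel lining higher throughout. Levels are given as counts per 1000000 transcripts of all genes (CPM) over the summed cells of a class, and a ratio of 2 or more, or of 0.5 or less, among genes with at least 50 counts was called. Outside the 7 rule genes 463 genes were read, of which 75 (16.2%) were called higher in members and 73 (15.8%) lower, with a median ratio of 0.92. All 13 pan-endothelial genes were called higher, with a median ratio of 5.36.

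Among the 13, Sox17, a transcription factor of arterial identity, stood at 837 CPM in members and 66.2 in other cells, a ratio of 12.6 (10.9 to 14.7). Podxl, a sialomucin of the luminal surface, stood at 3468 against 389 CPM, a ratio of 8.91 (8.32 to 9.53). Plvap, which forms the diaphragms of fenestrae and caveolae, stood at 4842 against 580 CPM, a ratio of 8.35 (7.89 to 8.84), and Cav1, the coat protein of caveolae, at 10569 against 1284 CPM, a ratio of 8.23 (7.93 to 8.55). Eng, a coreceptor for bone morphogenetic protein 9 (BMP9) and transforming growth factor β, reached 12076 CPM and was detected in 79.2% of members and 16.1% of other cells. The lowest ratio of the list was that of Vwf, the clotting factor carrier, at 2.53 (2.40 to 2.66).

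To see how far these ratios varied over the tissue, the section was cut along its length into 4 strips that held 536 or 537 members each. Strips of a section are not replicates. The ratio of Sox17 ran from 11.1 to 13.8 over the strips and that of Cavin2, another caveola gene, from 4.35 to 4.88, whereas that of Cav1 ran from 6.12 to 10.2 and that of Cd93 from 4.08 to 7.44. All of these stayed above 2, and among the 13 genes only Vwf had a strip below it, at 1.89.

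Of 8 genes of capillaries and lipid handling, of which Tcf15 was also on the pan-endothelial list, 6 were called higher, and the strongest were Tcf15, a transcription factor of fat-handling capillaries, at 11.8 (8.92 to 15.6), Cyp4b1 at 9.63 (8.41 to 11.03) and the glycerol channel gene Aqp7 at 9.39 (8.44 to 10.4). Cd36, the fatty acid receptor, stood at 16654 CPM, 2.35 times the other cells. Aqp1, which red cell precursors also express, stood at 0.71, and Lipg, an endothelial lipase, at 1.42. Of 6 arterial-linked genes 4 were called higher, and of 6 sinusoid-linked genes 4, Plvap, Mrc1, Oit3 and Lyve1, with Mrc1 at 2.88 (2.75 to 3.02). Within muscle surroundings Mrc1 and Lyve1 had log2 ratios of -0.94 each, and Mrc1 was at 0.569 in collagen I surroundings. Vcam1, the adhesion molecule for blood cell precursors, stood at 1.75 and Dnase1l3 at 1.98, both under the call.

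**Figure D2:**
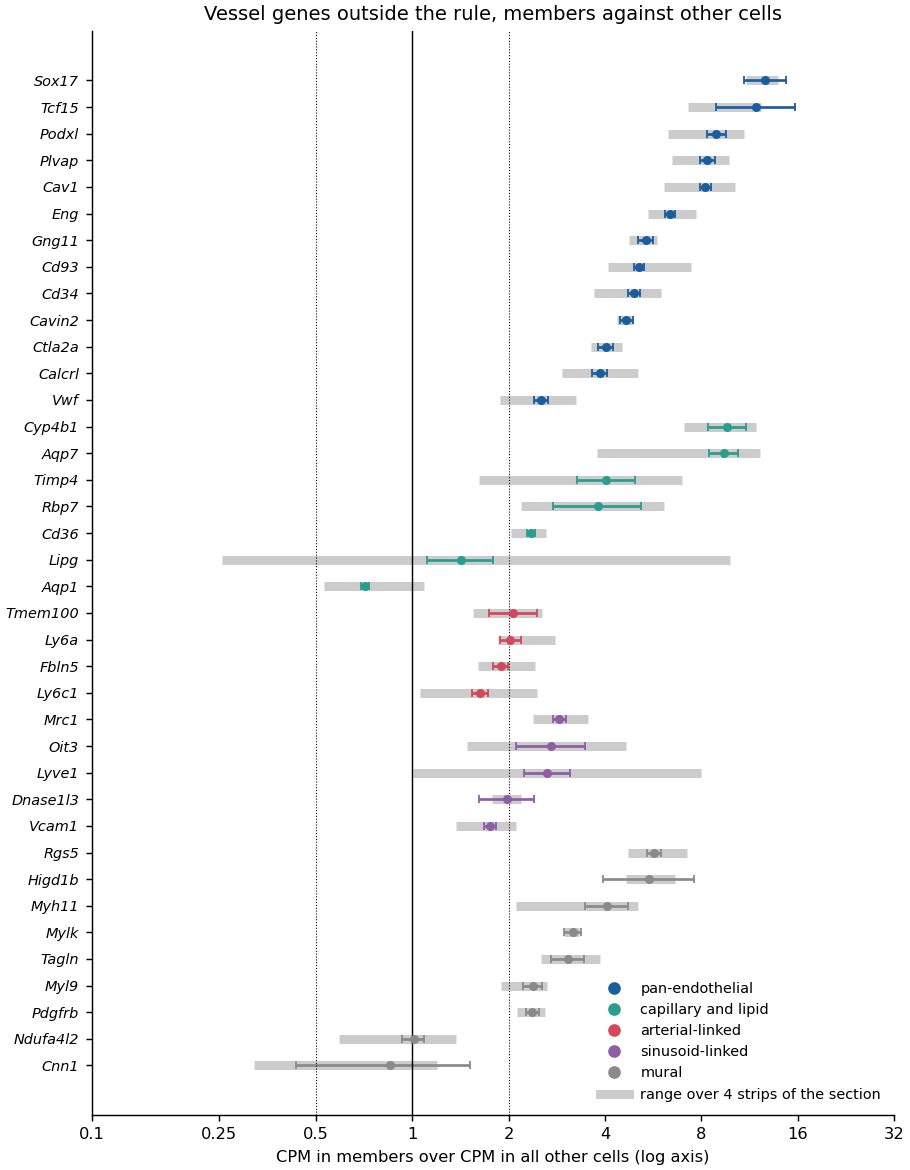
Ratio of CPM in members to CPM in all other cells (log axis) for the pan-endothelial, capillary, arterial-linked, sinusoid-linked and mural genes outside the rule, with 95% counting intervals as bars and the range over 4 strips of the section in grey. All 13 pan-endothelial genes lie above 2, and Lipg and Lyve1 have the widest ranges over the strips.

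Among 17 signals and receptors 5 were called higher. Pdgfb, the ligand that draws pericytes to vessels, stood at 3022 against 548 CPM, a ratio of 5.52 (5.16 to 5.90). Igfbp7, a secreted protein of vessel walls, had a ratio of 4.05 (3.93 to 4.18), Angpt2, the angiopoietin of remodelling vessels, 3.41 (2.91 to 3.97), Igfbp3 2.55 and Il4ra 2.34. The stem cell receptor gene Kit stood at 1.61 and Vegfa, the ligand of Kdr, at 1.18. Bmp2 stood at 0.88 and Ackr3, the scavenging receptor of the chemokine Cxcl12, at 1.08 over the section, but within marrow surroundings the ratios were 2.81 and 3.85.

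Genes of mural cells, the pericytes and smooth muscle that wrap vessels, came with the members. Of 9 mural genes 7 were called higher, with a median ratio of 3.06. Rgs5, a pericyte gene, was at 5853 against 1030 CPM, a ratio of 5.69 (5.42 to 5.97), and Pdgfrb, the receptor for Pdgfb, at 2.38. Rgs5 was detected in 31.7% of members and Pdgfrb in 35.3%, and the 100 members with most counts held 40.7% and 39.7% of them, so both were about equally spread. Myh11 was detected in 4.98%. The 164 members with 5 or more Rgs5 counts, a set chosen by Rgs5, had Tie1 at 13112 CPM and Pdgfrb at 13356 CPM, against 11270 and 3761 CPM in the 1467 with no Rgs5. Of the 164, 23.8% lay in marrow surroundings, and of the 1467, 79.1%, with median depths of 242 and 151 transcripts, so the sets also differ in place and depth. Whether their mural transcripts came from cells beside them was not tested. Tie1 chose the members as a rule gene, so its levels are a description. Counted only over nuclei the ratio of Rgs5 was 7.22.

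Lists of blood and tissue genes held part of the other calls. None of 12 erythroid genes was called higher and 7 were called lower, with the red cell anion exchanger Slc4a1 at 0.496, and all 5 cartilage genes were lower, from Ucma at 0.05 (0.04 to 0.07) to Col2a1 at 0.23. Of 12 macrophage genes 5 were lower and only Mrc1 was higher, and Adgre1, the F4/80 antigen gene, stood at 0.495. The members had been chosen against C1q, so low macrophage genes are partly set by the rule. Of 13 muscle genes 10 were called higher over the section, with Ttn, the giant sarcomere protein, at 2.13. Inside muscle surroundings the same gene stood at 0.76 and inside marrow at 1.05. The direction over the section therefore moved with where the members lay, and that of cartilage genes did too, with Col2a1 at 3.56 inside marrow surroundings.

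A small set of members carried megakaryocyte genes. There were 106 members, 4.94%, with 5 or more counts of Pf4 and Ppbp, platelet chemokines made by megakaryocytes, and 99.1% of them lay in marrow surroundings. They held 61.1% of the members' Vwf counts, 54.5% of Mmrn1, 91.1% of Slamf1 and 35.5% of Gata1, the factor of erythroid and megakaryocyte cells. Their Tie1 stood at 10213 CPM, Kdr at 9628 CPM, Cav1 at 468 CPM and Vwf at 42722 CPM. The 1176 marrow-surrounded members with fewer such counts had Tie1 at 11150 CPM, Kdr at 16736 CPM, Cav1 at 1908 CPM and Vwf at 1597 CPM. In marrow cells outside the rule, those with 5 or more Pf4 and Ppbp counts had Tie1 at 2136 CPM and Kdr at 1280 CPM. Those with fewer had 617 and 980 CPM. Tie1 and Kdr are rule genes, so their lower levels outside the rule follow from it, and all these values are a description. Leaving out all cells with 5 or more such counts, members and others, gave 76 genes higher and 72 lower, of which 74 and 64 were among the original calls. Slamf1, called higher at 2.18, then had a log2 ratio of -0.12.

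A smaller set carried the lymphatic gene Prox1. Prox1, the master gene of lymphatic endothelium, was detected in 76 members, and the 18 with 2 or more counts had Lyve1 at 11957 CPM and Mmrn1 at 13950 CPM, carried by 33.3% and 38.9% of them. All 76 had Lyve1 at 4385 CPM and Mmrn1 at 5508 CPM, against 235 and 2972 CPM in the members without Prox1, and Mmrn1 was detected in 22.4% of the 76 and 20.5% of those without. The members without Prox1 include the 106 with 5 or more Pf4 and Ppbp counts, which held 54.5% of all members' Mmrn1 counts. Of these 18, 66.7% lay in collagen I surroundings, 22.2% in muscle and 5.56% in marrow. The number is small, and these members also had Ttn at 29229 CPM. Of all 76, 43.4% lay in collagen I surroundings, 40.8% in muscle and 13.2% in marrow, their Ttn stood at 46629 CPM, Lyve1 was detected in 21.1% of them, and their median depth was 232 transcripts against 160 in the members without Prox1. In the 76, Cav1, Cd34 and Gpihbp1 were detected in 78.9%, 76.3% and 73.7%, and Clec14a and Plvap in 30.3% and 27.6%. Within muscle surroundings Prox1 was lower in members than in the other cells, at a log2 ratio of -0.34.

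Members in marrow were compared with members in muscle to ask how far vessel cells differed within the section. Among 254 genes read, rule genes included, 121 (47.6%) were called higher in marrow-surrounded members and 72 (28.3%) lower, a high background. All 12 erythroid and 14 granulocyte genes were higher and all 13 muscle genes lower, lists that defined the surroundings. The same ratio in the other cells of the same surroundings is set beside the values of the genes described first. The 5 genes with the highest ratios, Slamf1, Bst1, Il1b, Slc14a1 and Gata1, and the 5 with the lowest, Myoz1, Pgam2, Actn3, Ttn and Myoz2, moved the same way in the other cells. Slamf1, Bst1 and Il1b had 314, 288 and 208 counts in marrow-surrounded members and 0 in muscle-surrounded ones. They could be read only through the marrow, and their ratios have no finite value. Slc14a1, Gata1 and the 5 lowest genes also reached the minimum count through the group where they were high. Their directions could not have come out the other way.

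Sinusoid-linked genes were compared first. Plvap, Vcam1 and Mrc1 were called higher in the marrow, while Dnase1l3 and Oit3 reached the 50 counts needed only through the marrow-surrounded members and could not have come out lower. Plvap stood at 5404 CPM in marrow-surrounded and 669 CPM in muscle-surrounded members, a ratio of 8.08 (5.94 to 11.3), and the other cells had a ratio of 3.101. Vcam1 stood at 8578 and 1083 CPM, a ratio of 7.92 (6.22 to 10.2) against 4.30 in the other cells. Mrc1, the mannose receptor of macrophages and sinusoids, stood at 8515 and 1417 CPM, a ratio of 6.01 (4.86 to 7.52), whereas in the other cells it was lower in marrow, at 0.67. Dnase1l3, a secreted nuclease, had 111 counts in marrow-surrounded members and 0 in muscle-surrounded ones, which with a floor of 3 counts over the muscle group is at least 10.5-fold higher, and Oit3 had 67 counts and 4.

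Mrc1 is also a macrophage gene, so its level was read in members with no C1q count, some of which still held other macrophage transcripts. The 903 marrow-surrounded members with no C1q count had Mrc1 at 8776 CPM, Adgre1 at 737 CPM and Cd68 at 1643 CPM. C1q-positive cells in the same surroundings had Mrc1 at 4866 CPM, Adgre1 at 3469 CPM and Cd68 at 4395 CPM. Over all 1281 marrow-surrounded members Mrc1 was 4.63 times (4.40 to 4.87) as high as in the other marrow cells. The part of macrophage transcripts in this level was not tested, and the rule itself lowers macrophage genes.

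Of the rule genes, Clec14a stood 3.05 times higher in marrow-surrounded than in muscle-surrounded members (2.56 to 3.67) and 0.92 in the other cells, and Gpihbp1 at 0.49. Tie1 was at 11048 and 11099 CPM, a ratio of 0.995 (0.915 to 1.08). These genes chose the members, and the ratios are a description. Cyp4b1 was higher at 4.71 (2.93 to 8.06), with 2.81 in the other cells. At 287 CPM in muscle-surrounded members, Cyp4b1 reached the minimum count only through the marrow and could not have been called lower. Vwf and Mmrn1 were higher at 7.13 and 75.5. Without members of 5 or more Pf4 and Ppbp counts Vwf stood at 1.79 (1.34 to 2.42) and Mmrn1 at 32.7 (12.7 to 120). Plvap, Mrc1 and Vcam1 were then at 8.56, 6.33 and 8.19. Mmrn1 had 1065 counts in marrow-surrounded members but only 63.7 CPM in muscle-surrounded ones. It reached the minimum count only through the marrow and could not have come out lower.

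Some other vessel genes were lower in the marrow, where 28.3% of all genes read were called lower and 47.6% higher. Of the 13 pan-endothelial genes 5 were lower and 2 higher, and of the 6 arterial-linked genes 3 were lower and 0 higher, lists that share genes. Of 7 genes of capillaries and lipid handling that could be read 3 were called lower, Aqp7, Tcf15 and Timp4, and 2 higher, Cyp4b1 and Lipg, the latter with 76 counts against 0. Of these, Lipg had its counts in marrow, and Tcf15 had 8 counts in marrow and 52 in muscle. Both could be read only through the group where they were high. The same held for Aqp7, at 99.3 CPM in marrow-surrounded members, and for Timp4, which had 116 counts over all members. Lipg, Tcf15, Aqp7 and Timp4 could thus not have come out the other way, and neither could Cyp4b1. Cav1 stood at 1738 CPM in marrow-surrounded and 28042 CPM in muscle-surrounded members, 16.1-fold lower in marrow (14.4 to 18.1), and Aqp7 at 99.3 and 5414 CPM, 54.5-fold lower (35.4 to 88.1). Cd34, a sialomucin of capillaries and precursors, was 7.41-fold lower, Tcf15 22.9-fold, Timp4 7.73-fold, Igfbp7 3.22-fold, Sox17 2.14-fold, Podxl 2.04-fold, and Pdgfb 2.03-fold. In the other cells Cav1 was 34.6-fold lower in marrow, Cd34 15.4-fold and Aqp7 10.6-fold, so for Cav1 and Cd34 the tissue around the vessels differed even more than the vessels did. Eng, Calcrl and Gng11 lay between 1.03 and 1.53 and were not called. Counted over nuclei only, Eng and Kdr changed side, from 1.53 and 1.42 to 0.87 and 0.82.

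**Figure D3:**
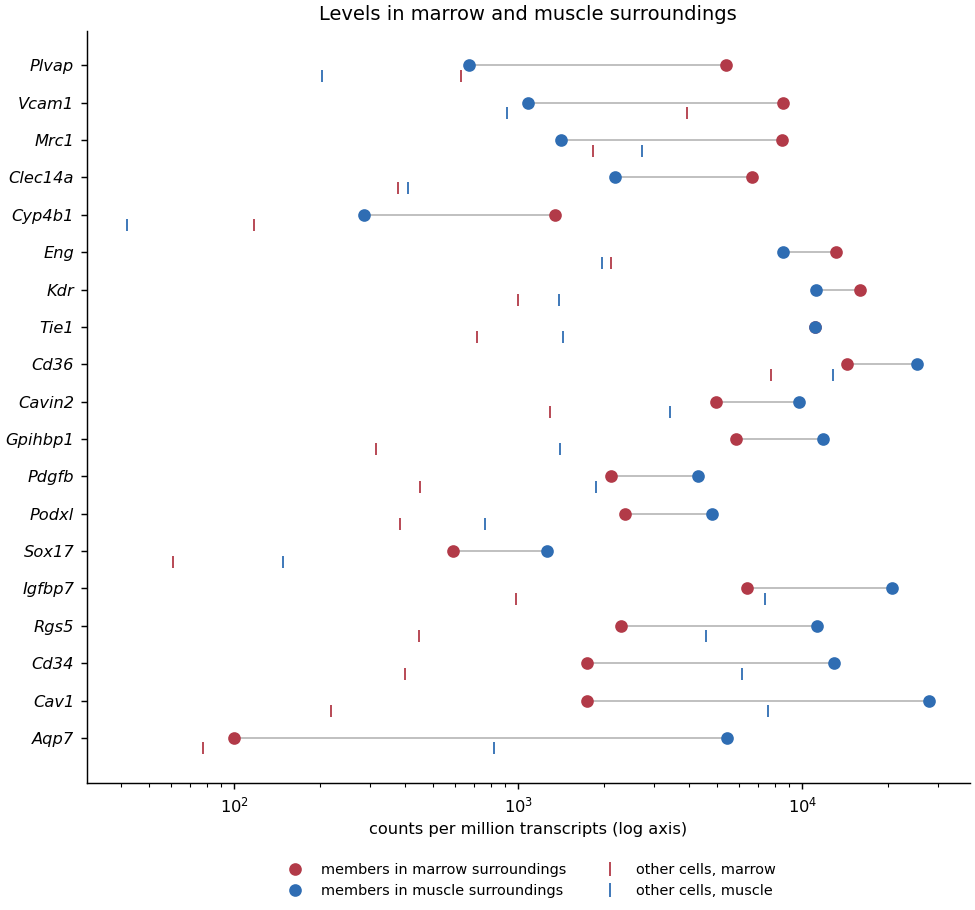
Level of vessel genes in CPM (log axis) in members (dots) and in other cells (ticks) of marrow (red) and muscle (blue) surroundings. Plvap, Vcam1 and Mrc1 are higher in marrow-surrounded members, Aqp7, Cav1 and Cd34 are higher in muscle-surrounded members, and Tie1 is at 11048 and 11099 CPM.

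Members in collagen I surroundings had a mixed profile. Cav1 stood there at 21180 CPM and Cd34 at 13861 CPM, near the muscle levels, Mrc1 at 1523 CPM and Vcam1 at 931 CPM were low as in muscle, and Plvap at 5676 CPM was near the marrow level. Against the other cells of the same surroundings the ratio was 12.8 (11.2 to 14.6) for Podxl, 8.85 (7.88 to 9.93) for Plvap and 5.12 (4.85 to 5.40) for Cav1. Mrc1 stood at 0.57 of those cells and Vcam1 at 0.67.

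Marrow-surrounded members also differed among themselves. This was described in the 1176 with under 5 counts of Pf4 and Ppbp, by splitting them on genes chosen after their values were seen, first on whether any Mrc1 transcript was present (750) or not (426), with median depths of 152 and 149 transcripts. Members with Mrc1 had Vcam1 at 11008 against 5125 CPM, 2.15 times (1.91 to 2.42), Cyp4b1 at 2.99 times (2.17 to 4.19) and Mmrn1 at 2.00 times (1.58 to 2.55). They had Cav1 at 642 against 4117 CPM, 0.16 times (0.12 to 0.20), Cd34 at 0.31, Podxl at 0.33, Igfbp3 at 0.30 and Rgs5 at 0.17 times. Of the rule genes, Tie1 stood at 1.02 (0.938 to 1.12), Gpihbp1 at 1.11 (0.989 to 1.26), Kdr at 1.26 (1.17 to 1.36) and Clec14a at 1.30 (1.16 to 1.46). These 4 genes chose the members, and their ratios are a description. Plvap stood at 1.23 (1.08 to 1.40).

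The same members were then split by Cav1, which 137 of them carried. Against the 1039 without, they had Rgs5 at 14996 against 595 CPM, 25.2 times (20.2 to 31.7), Podxl at 7.91 times (6.61 to 9.47), Cd34 at 6.11, Igfbp3 at 5.15, Fbln5, an elastic fibre gene of arteries, at 4.94, Sox17 at 4.41 (3.03 to 6.37), Vwf at 4.20 and Ly6a at 4.07 times. Mrc1 stood at 0.30 times and Cyp4b1 at 0.23 times, and Plvap at 1.05 had an interval that holds 1. Their median depth was 177 against 149 transcripts. After each cell was thinned to 50 transcripts, Mrc1 was detected in 13.1% of the 61 members that still held Cav1 and in 37.8% of the 1103 that did not, Podxl in 39.3% and 8.43%, and Plvap in 18.0% and 25.7%, so the level of Plvap was not the same on both scales. Thinned in the same way, the split by Mrc1 had Sox17 in 4.47% of 425 members with Mrc1 and 2.98% of 739 without, the other direction than in CPM. A split of the same members by Sox17, which 102 carried, did not show the lower Mrc1 and Vcam1. There Mrc1 stood at 1.03 times (0.878 to 1.20) and Vcam1 at 1.10 times (0.937 to 1.28), while Cav1 stood at 7.01 times and Podxl at 5.25 times. In the split by Mrc1, Sox17 at 0.69 (0.481 to 1.003) had an interval that holds 1. The mural gene Rgs5 moved with the split by Cav1, and its part in it was not tested.

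**Figure D4:**
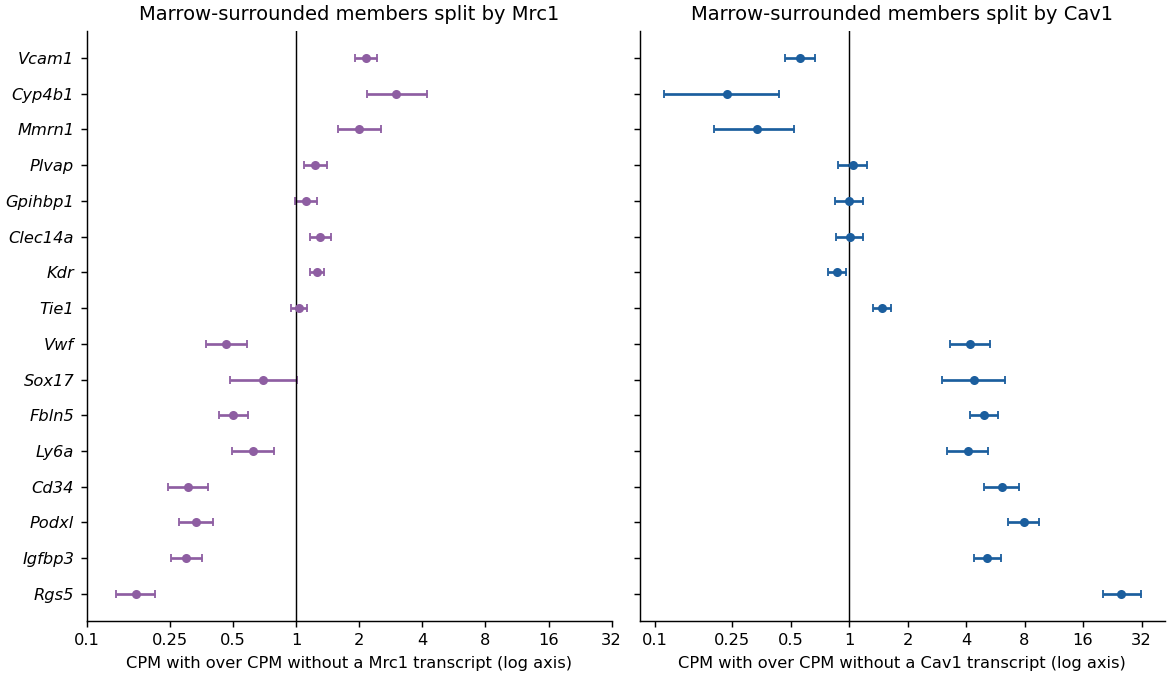
Ratio of CPM (log axis, 95% counting intervals) between marrow-surrounded members with and without an Mrc1 transcript (left) and with and without a Cav1 transcript (right). Rgs5, Igfbp3, Podxl and Cd34 lie below 1 in the Mrc1 split and above 4 in the Cav1 split, and Vcam1, Cyp4b1 and Mmrn1 the reverse way around 1.

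The shape of nuclei was not used by the rule. The ratio of the long to the short axis had a median of 1.58 in members (quartiles 1.30 and 2.08) and 1.36 in other cells (1.19 and 1.71), and 27.3% of members against 16.5% of others had a ratio of 2 or more. In marrow surroundings the medians were 1.43 and 1.28, with 15.5% and 4.21% at 2 or more. In muscle they were 1.75 and 1.94 and in collagen I surroundings 2.02 and 2.06, so members were longer than their neighbours in marrow but not there. Over the 4 strips the members' median lay between 1.48 and 1.72, and that of the other cells between 1.29 and 1.49, higher in members in each strip. The median cell area was 81.4 square µm in members and 49.7 in other cells over the section, and 66.6 against 38.8 in marrow, but 113 against 123 in muscle. It was 68.0 in members with exactly 4 rule counts and 90.7 with at least 6. The median axis ratio was 1.42 in cells with 3 rule counts, 1.47 in members with exactly 4 and 1.65 with at least 6. Neither cell area nor nucleus elongation is thus free of the rule. The median nucleus area over the section was 24.2 against 22.0 square µm.

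**Figure D5:**
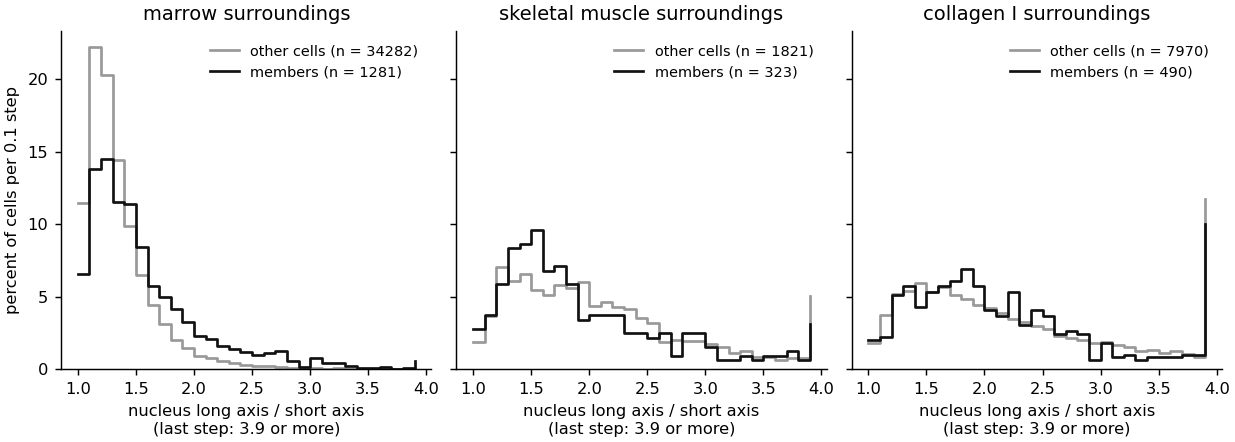
Share of cells per step of 0.1 of the ratio of long to short nucleus axis, for members (black) and other cells (grey) in marrow, muscle and collagen I surroundings; the last step holds all ratios of 3.9 or more. In marrow the members extend further to the right than the other cells, with 15.5% against 4.21% at 2 or more.

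Members lay nearer to another member than the other cells did. From a member the nearest other member was at a median of 11.9 µm, while from another cell the nearest member was at 25.1 µm, and 76.8% of members against 37.2% of other cells had a member within 20 µm. Linking members at up to 20 µm gave 916 groups, of which 498 were 1 cell alone and 96 had 5 or more, together 812 members or 37.8%, and the largest held 28. Of the other cells 74.1% lay within 40 µm of a member. Pieces of 1 vessel cell cut into several outlines would also lie close together, and this was not tested.

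Around a member, within 40 µm, there were on average 4.83 other members and 4.57 cells with 5 or more mural counts, against 2.77 and 2.35 around the other cells. Members that held 5 or more mural counts themselves enter both numbers. In marrow surroundings alone the numbers were 4.55 and 2.53 against 3.23 and 1.79, ratios of 1.41 for both. C1q-positive cells, the macrophages of the study's question, numbered 12.1 around marrow-surrounded members and 13.7 around other marrow cells, but in collagen I surroundings they numbered 5.08 around members and 3.73 around the other cells. In marrow they made up 13.3% and 13.2% of the neighbours, since members had fewer neighbours in all, 91.0 against 104. Cells with 3 or more C1q counts could not be members, so the numbers of C1q-positive cells are partly set by the rule. Cells with 5 or more erythroid counts were 94.3% and 94.8% of the neighbours and megakaryocyte-list cells 4.90% and 4.74%.

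The cells beside members were also read by distance to the nearest member in marrow surroundings, over 4176 cells up to 10 µm away, 10450 from 10 to 20 µm, 15237 from 20 to 40 µm and 4100 from 40 to 80 µm. Kdr, a rule gene, went from 3038 to 1176, 494 and 459 CPM over these distances, and Rgs5 from 1086 to 541, 254 and 317 CPM. Pdgfrb went from 1962 to 1473, 1067 and 1261 CPM and Igf1, a growth factor of stromal cells, from 2697 to 2134, 1662 and 1827 CPM. Mpo, a gene of early granulocytes, ran the other way, at 6002, 7165, 9029 and 9468 CPM, but S100a9, a gene of later granulocytes, went from 18945 to 17402, 16123 and 15178 CPM, so the granulocyte genes had no common course. The erythroid gene Klf1 stood at 7756, 8641, 9288 and 8623 CPM and C1qb at 3806, 4979, 4900 and 5072 CPM. In the 319 cells farther than 80 µm Mpo was at 5903 CPM and Klf1 at 6477 CPM, both below the nearest cells, and C1qb was at 4295 CPM. Transcripts of members that fell into the outlines next to them enter the nearest class.

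The same rule was counted in the 3 other sections that carried the same gene panel. It took 6097 of 117329 cells in the E14.5 liver, a share between 5.07% and 5.33%, 2126 of 108338 in the untreated spleen, 1.96%, and 1331 of 94582 in the PHZ-treated spleen, 1.41%, after leaving out 902, 1387 and 814 cells for C1q. The E13.5 liver and the marrow at 89 weeks used a panel on which the rule could not be applied and were not analysed here. Differences between sections are those of 1 section each and were not tested.

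Of the 6 sinusoid-linked genes, Lyve1, Oit3 and Dnase1l3 were lower in the P8 members than in the fetal liver's. The liver levels of Plvap, Vcam1 and Mrc1 are not given here. Lyve1 stood at 434 CPM in P8 members and 10234 CPM in the liver's, and Oit3 at 203 and 17547 CPM. Dnase1l3 stood at 298 and 2746 CPM, and at 501 CPM in marrow-surrounded P8 members. Bmp2 stood at 416 CPM in P8 and 3824, 5670 and 1132 CPM in the liver, untreated spleen and PHZ-treated spleen, where it was 14.6, 11.2 and 13.5 times the other cells, against 0.88 in P8 and 2.81 within its marrow surroundings. Ackr3 stood at 685 CPM in P8 against 9482 and 9091 CPM in the spleens, and Plvap at 4842 against 25843 and 14552 CPM. The P8 cells include those of muscle and collagen I surroundings, and this changes some values. Rgs5 stood at 5853 CPM over all P8 members and 2303 CPM in marrow-surrounded ones, against 236 CPM in the liver and 1335 and 1365 CPM in the spleens. Aqp7 stood at 1440 CPM over all P8 members, against 166, 512 and 15.2 CPM, but at 99.3 CPM in marrow-surrounded ones, below the liver and the untreated spleen. Eng, Kdr and Tie1 lay between 10431 and 29343 CPM in all 4 sections. Kdr and Tie1 chose the cells in each section, so their levels are a description.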

How the data were processed

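Per the labels and the run descriptions, the P8 section was imaged with a Xenium panel of 477 genes, processed by Xenium Onboard Analysis; the study's methods name Space Ranger. The authors deposited whole-number counts per cell and gene, cell positions, areas and outlines, and a transcript table with a quality score per transcript. Counts rebuilt from transcripts with a quality score of 20 or more equalled the deposited counts. The members and gene lists were chosen with earlier results of these data known. Counts were summed over classes of cells and divided by the total (CPM); ratios have exact conditional Poisson intervals (95%, scipy 1.17.1). Genes needed 50 counts, and a 2-fold ratio was called; cells are not replicates, so no p-value was computed. Genes named in the text were those of the vessel lists, plus the 10 highest and 5 lowest ratios among genes with 1000 counts and the 5 highest and lowest of marrow over muscle among genes with 200; the few others named were chosen after their values were seen. Doublets were not called, and no cells were filtered. The comparison was tested on simulated data. Promoter sequences came from RefSeq (GRCm38.p6). Depth per cell is given in the report as medians.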

Additional observations from a re-analysis of the deposited data

Results flagged for a closer look

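A pair of genes, Mrc1 and Il4ra, had opposite directions in the members of the P8 section and in cells chosen by the same rule in another section. Mrc1 was 2.88 times as high in P8 members as in the other cells, a log2 ratio of 1.53, and in the untreated spleen it was lower in the rule's cells, at a log2 ratio of -1.28. Il4ra, the interleukin 4 receptor gene, had log2 ratios of 1.23 at P8 and -1.51 in the untreated spleen. The other cells of the spleen had Mrc1 at 5665 CPM and Il4ra at 6193 CPM, against 1897 and 449 CPM at P8, and the rule's cells had Mrc1 at 2334 and 5466 CPM and Il4ra at 2173 and 1053 CPM in the spleen and at P8. The difference between the sections was not tested.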

How the results depend on the processing

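Of 65 alternative values of the main results, 50 stayed within 1.5 times the count, or within the spread over the 4 strips or the interval of the share. A count that stayed close can cover other genes: of the 75 higher genes 52 were among the 82 higher within marrow surroundings and 61 among the 82 over nuclei, and of the 73 lower genes 31 were lower within marrow and 5 within muscle. Of the named genes' alternative ratios 468 moved, 402 of them for members against other cells, 894 did not, and 16 of genes called at 2-fold changed sign. Genes under the call are not counted there, such as Bmp2 within marrow, or Eng and Kdr over nuclei in marrow against muscle. The share of members was 5.98% with at least 3 rule counts, 2.21% with at least 6, 4.63% without the C1q exclusion, 1.86% when only transcripts over the nucleus counted and 4.33% among cells with at least 20 counts. Genes called in members against other cells numbered 141 higher and 25 lower by mean counts per cell, where the greater depth of members enters, 45 lower with at least 500 counts per gene, and, chosen after seeing the data, 38 lower within marrow surroundings and 29 higher and 22 lower within muscle surroundings. For marrow against muscle, 61 genes were higher and 30 lower with at least 500 counts. The median nucleus area was 26.1 square µm with at least 6 rule counts, and mural-list cells were 1.41 times as many around members within marrow surroundings. In log2 ratios, the called genes that changed sign were Col2a1 (1.83), Comp (0.78), Sox9 (0.50), Ucma (0.074), Pou3f3 (0.015), Myoz1 (-0.59) and Pgam2 (-0.78) within marrow; Comp (0.22), Lyve1 (-0.94), Mrc1 (-0.94), Myoz1 (-0.47), Pgam2 (-0.45), Prox1 (-0.34) and Ttn (-0.40) within muscle; and Slamf1 with at least 6 rule counts (-0.27) and without cells of 5 or more Pf4 and Ppbp counts (-0.12). The causes were not tested beyond the number of genes read, which falls with a higher minimum. No paired analysis was possible because each condition has 1 section. Thinning to 50 transcripts left out 21 members and 7564 other cells. Depth limits genes with few counts, and transcripts of neighbours limit the reading of low levels in single outlines.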
